A study of Homo sapiens with 20 samples.

Results

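The basic helix-loop-helix (bHLH) E-protein genes TCF3, TCF4 and TCF12 and the genes of their inhibitors, ID1, ID2, ID3 and ID4, were examined in Hi-C loop lists from 2 isogenic pairs of human glioblastoma (GBM) cell lines. Anchor pairs were assigned to a gene when an anchor lay within 3 kb of any annotated start site of that gene on hg19. By this rule 185 of the 572000 anchor pairs in the union of the 4 lists belonged to the 7 genes. All of them but ID4 had at least 1 anchor pair, as did 10019 of 20149 protein-coding genes. The parental lines H4 and 42MGBA come from human GBM, and each carries a truncating STAG2 mutation of its own (STAG2-mutant). Gene editing repaired that mutation in the derivative H4 88-1 and in the derivative 42MGBA 53-1 (STAG2-corrected, labelled STAG2-WT). In the names of the loop lists, by contrast, WT stands for the parental, STAG2-mutant line. All 4 lines grew in the same serum-containing medium, and the labels name no agent for the Hi-C cultures. Each genotype was thus represented by 1 line per system, so that a difference between 2 lines of a pair cannot be told apart from one between the derivative and its parent. The lists hold no expression values, and the identity of the cells was not checked against marker genes.

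E-proteins are transcription factors that bind E-box DNA, letters CANNTG, as homodimers or together with tissue-restricted bHLH partners. ID proteins carry the helix-loop-helix but no DNA-binding region, so they pair with E-proteins and keep them off DNA, and their genes are classical targets of bone morphogenetic protein (BMP) signalling through SMAD factors. In the nervous system E-proteins serve neuronal and oligodendrocyte differentiation, and ID proteins are known for holding progenitors and glioma cells undifferentiated. TCF4 here is the E-protein also called E2-2 or ITF2. It is a different gene from TCF7L2, the Wnt effector that has also been called TCF-4. STAG2 is a subunit of cohesin, the ring complex that forms chromatin loops and is halted by CTCF bound to DNA.

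Each list gave the 300000 anchor pairs of highest loop strength in 1 line. Loop strength is the enhanced contact signal between 2 anchors of about 5 kb and has no unit. The labels name 1 list for both replicates of a line, so no value has a replicate error, no test between lines was possible and no p-value is given. The lowest strength listed was 4.14 in H4 and 4.44 in H4 88-1, beside 4.49 in 42MGBA and 4.28 in 42MGBA 53-1. An anchor pair missing from a list was set to that list's lowest strength, so a fold against it is a lower bound. Where the strength of an anchor pair found in 1 list was under the lowest of the other list, its direction cannot be read. This held for 20 of 127 member pairs in the H4 comparison and 9 of 122 in the 42MGBA comparison, and such pairs are called unreadable. Any other anchor pair found in 1 list counts as lower in the line that lacks it, which restates its listing. Neighbouring anchor pairs share contact signal and are not independent of each other.

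The stretches below show the DNA at the loop ends described afterwards, read from the GRCh37 genome, which has the coordinates of hg19. The first 4 are the CTCF core letters CCANNAGGNGGC, searched on both strands, with 20 flanking bases on each side and the match in capitals. Among the 97 anchors of the member pairs 6 held such a match (6.19%), beside 6.04% of all 128561 listed anchors, so the members' anchors did not stand apart by these letters. Each sequence reads 5′ to 3′ on the strand given.
TCF4 intron, chr18:53051944-53051995, plus strand: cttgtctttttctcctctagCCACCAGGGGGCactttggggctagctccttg
TCF4 intron, chr18:53073314-53073365, plus strand: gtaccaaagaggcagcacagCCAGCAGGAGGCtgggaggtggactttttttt
Downstream of ID2, chr2:8826038-8826089, minus strand: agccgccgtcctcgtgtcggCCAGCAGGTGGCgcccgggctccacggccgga
Upstream of ID3, chr1:23892895-23892946, minus strand: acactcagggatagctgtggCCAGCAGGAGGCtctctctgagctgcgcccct
The remaining 2 matches lay in the far anchors of TCF3 and ID1. The TCF4 matches lay in start-site anchors on the same strand, and the other 2 of those shown lay in the anchors next to ID2 and ID3, outside any annotated gene. No far anchor of TCF4, TCF12, ID2 or ID3 held the letters.

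The next 4 stretches are the 200 bases before start sites that sat in or next to a loop anchor, with E-boxes in capitals (the letters CANNTG read the same way on both strands). TCF4 is shown at 2 starts because a loop joined them to each other. An E-box was present in 52.3% of the corresponding stretches of all 20163 protein-coding gene records.
TCF4 upstream group of starts, chr18:53255861-53256060, minus strand: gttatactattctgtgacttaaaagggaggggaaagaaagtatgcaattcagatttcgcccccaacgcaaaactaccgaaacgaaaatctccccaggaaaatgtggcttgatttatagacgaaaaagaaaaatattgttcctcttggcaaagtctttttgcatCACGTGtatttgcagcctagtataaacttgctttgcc
TCF4 internal group of starts, chr18:53090989-53091188, minus strand: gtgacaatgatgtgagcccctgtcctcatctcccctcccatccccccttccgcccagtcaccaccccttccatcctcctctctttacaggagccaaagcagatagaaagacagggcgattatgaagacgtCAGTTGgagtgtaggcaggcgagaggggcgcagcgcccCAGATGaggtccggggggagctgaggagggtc
ID2, chr2:8818775-8818974, plus strand: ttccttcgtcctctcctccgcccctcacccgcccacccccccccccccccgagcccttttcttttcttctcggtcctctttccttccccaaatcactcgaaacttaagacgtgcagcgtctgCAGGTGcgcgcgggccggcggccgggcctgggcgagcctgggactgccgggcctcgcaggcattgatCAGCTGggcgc
ID3, chr1:23885993-23886192, minus strand: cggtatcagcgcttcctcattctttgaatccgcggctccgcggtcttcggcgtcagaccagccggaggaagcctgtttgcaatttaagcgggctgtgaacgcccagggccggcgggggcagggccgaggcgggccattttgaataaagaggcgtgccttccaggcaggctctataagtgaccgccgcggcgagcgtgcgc
The TCF4 stretches held 1 and 2 E-boxes. Each is 1 of several in its group, and others held none, such as those before 53257008 and 53258510 upstream and before 53089499 among the internal starts. The ID2 stretch, which overlaps an exon of the long non-coding RNA gene ID2-AS1, held 2, both with the CAGGTG or CAGCTG form that E-proteins favour, and the ID3 stretch held none. The stretch before another ID2 start, at 8822186, held no E-box. That start lay within 3 kb of the anchor of the strongest ID2 pair, whereas the start of the printed ID2 stretch did not.

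Loops at TCF4 and TCF12 made up most of the data. TCF4 had 71 anchor pairs and TCF12 had 77, beside a median of 16 over protein-coding genes with any (quartiles 6 and 39). Pairs were assigned through any start, and TCF4 has 90 start positions and TCF12 has 25, so these counts depend on that rule. ID3 had 19, ID2 had 14, and TCF3 and ID1 had 2 each. The H4 list held 97 of the 185 member pairs, the H4 88-1 list 75, the 42MGBA list 100 and the 42MGBA 53-1 list 80. TCF12 had 12 anchor pairs present in all 4 lists, ID3 had 7, ID2 had 1 and TCF4 had none.

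**Figure D1:**
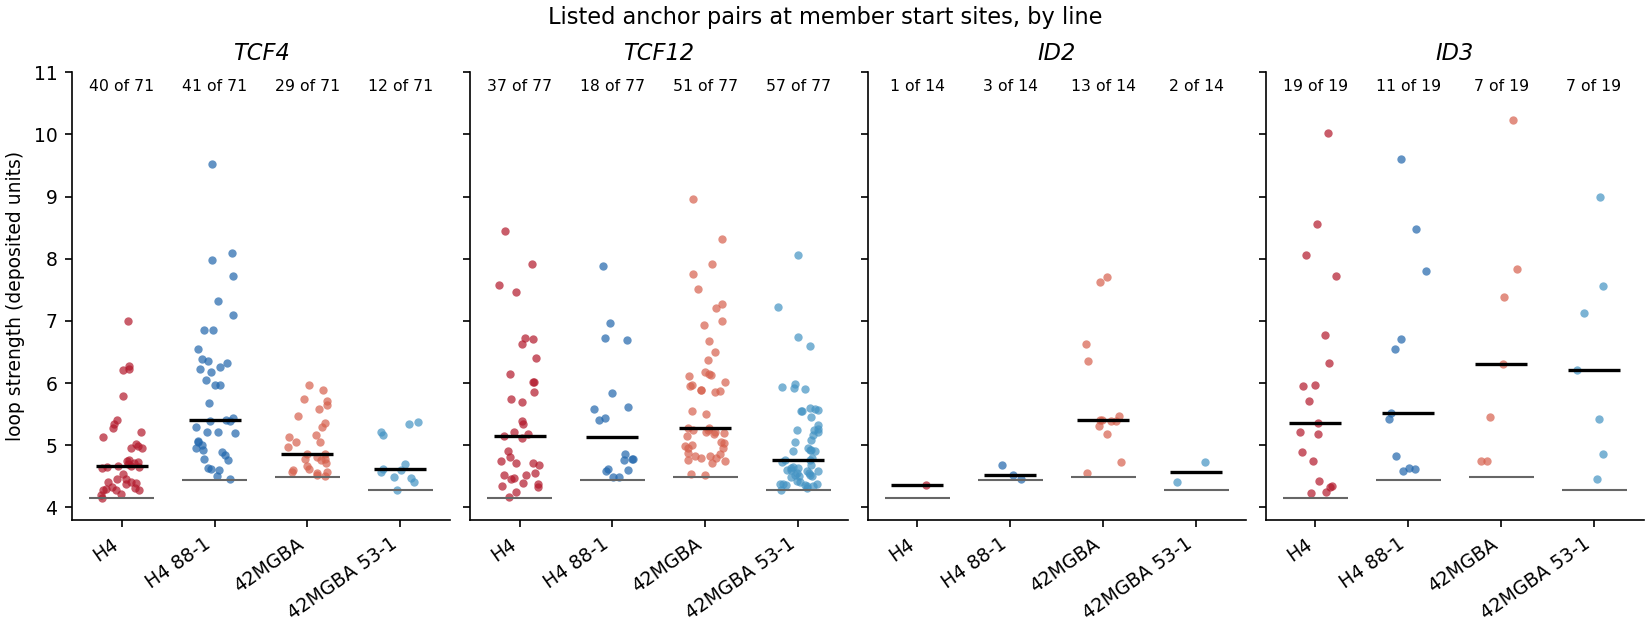
Loop strength (vertical axis, deposited units) of each listed anchor pair at TCF4, TCF12, ID2 and ID3 in the 4 lines, 1 point per pair, with the median as a black bar, the lowest strength of the list as a grey bar and the number listed above. The H4 88-1 points of TCF4 reach 9.52, and ID2 has 13 of its 14 pairs in 42MGBA.

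In the comparison of H4 88-1 with H4, 5 of 127 member pairs (3.94%) were more than 1.5-fold higher, against 2.92% of all anchor pairs, and 3 (2.36%) were more than 1.5-fold lower, against 0.722%. All 5 of the higher pairs were at TCF4, 4 of them within the gene, and all 3 of the lower ones at TCF12. In the comparison of 42MGBA 53-1 with 42MGBA none of 122 was 1.5-fold higher, against 0.485%, and 5 (4.10%) were 1.5-fold lower, against 3.4%, of which 3 were at ID2 and 2 at TCF12. The median log2 ratio over all member pairs was 0.03 in H4 and -0.15 in 42MGBA, beside 0.09 and -0.08 over all anchor pairs. Each of these shares rests on 5 or fewer pairs, and among pairs listed in both H4 lines 0 were higher and 1 was lower. The shares also depended on anchor distance. Under 200 kb in H4, 4.39% of all pairs and 11.4% of member pairs were higher. From 500 to 1000 kb in H4, 1.28% and 7.89% were lower. In 42MGBA the lower shares were 6.76% and 3.92% from 500 to 1000 kb, and 8.50% and 14.3% above 1000 kb.

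The z-score comparison used the 100000 strongest anchor pairs of each line of a pair and a cutoff of 1.96 on the residual of a regression through the origin. Of 35 member pairs scored in H4, none was called gained (background 1.94%) and 1 was called lost (background 2.17%). Of 23 scored in 42MGBA none was gained (background 1.61%) and none lost (background 2.45%). The lost pair was at TCF12 and had a z-score of -2.02, just past the cutoff. When z-scores were taken within 10 distance bins the most extreme TCF12 value was -1.35 and no TCF12 pair was called.

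**Figure D2:**
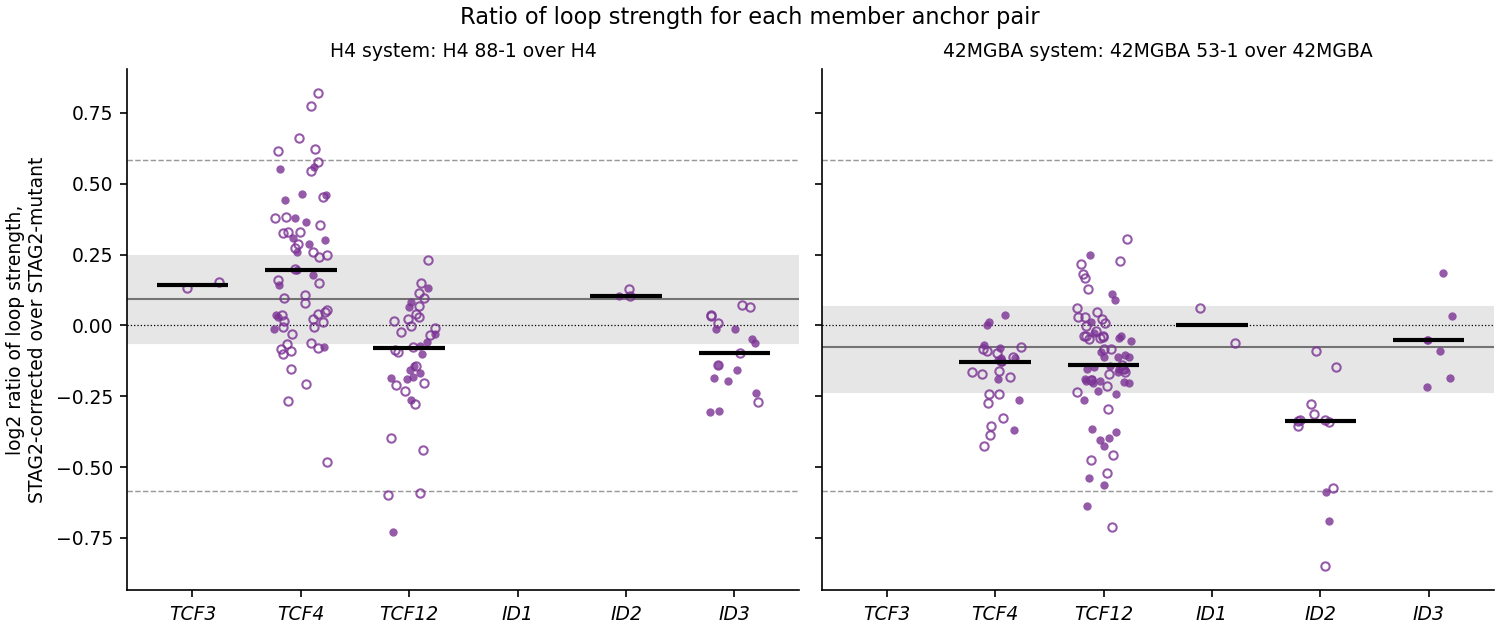
Log2 ratio of loop strength, STAG2-corrected over STAG2-mutant (vertical axis), for each member anchor pair in the H4 system (left) and the 42MGBA system (right). Filled points are pairs listed in both lines, open points pairs listed in 1 with the other at its lowest strength, black bars medians, the grey line and band the median and quartiles of all anchor pairs, and dashed lines a 1.5-fold difference. TCF4 has a median of 0.20 on the left and ID2 of -0.34 on the right.

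TCF4 lies at chr18:52889416-53332018 on the minus strand (ENSG00000196628.20_19) and has 93 annotated transcripts with 90 start positions. It was the only member with higher strength in the STAG2-corrected line of H4 over many pairs. The lists held 40 of its 71 pairs in H4 and 41 in H4 88-1, beside 29 in 42MGBA and 12 in 42MGBA 53-1, with the strongest at 6.99, 9.52, 5.97 and 5.37. Its median log2 ratio was 0.20 over 63 pairs in H4 (quartiles 0.01 and 0.37), against 0.09 over chromosome 18, and 39 of the 54 pairs with a readable direction were higher in H4 88-1. In 42MGBA the median was -0.13 over 29 pairs, against -0.04 over chromosome 18, and 26 of the 29 were lower in 42MGBA 53-1. Of the 29, 12 were listed in both lines, with a median of -0.12. With 1 start per gene in place of all starts, TCF4 had no listed pair in any line. The pairs fell into 3 main sets of loops that led to 3 different places.

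The first set joined internal TCF4 starts at chr18:53046905-53095107 with a region upstream of the gene, chr18:53417404-53464378, which overlaps the long non-coding RNA genes LINC01415 and ENSG00000267284 and no coding gene. Of its 30 anchor pairs, 21 were listed in H4 and 26 in H4 88-1, but 1 in 42MGBA and none in 42MGBA 53-1. The pair of highest strength, 359.6 kb apart, had 6.99 in H4, 9.52 in H4 88-1 and 4.66 in 42MGBA, and was absent from the 42MGBA 53-1 list. This was a 1.36-fold higher strength in H4 88-1 than in H4. Among pairs listed in both H4 lines, the largest increase was from 4.66 to 6.86, or 1.47-fold, at a pair 379 kb apart. The median log2 ratio of the 30 pairs was 0.29. Another 4 pairs, up to 4.73, joined the starts at chr18:52983766-52993546 with the same region and were listed in H4 alone. All 15 z-scored TCF4 pairs of the H4 system stayed under the cutoff, with z-scores from -1.26 to 1.70.

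The second set was a loop within the gene, from the internal starts at chr18:53070710-53095107 to the group of 36 transcript starts at chr18:53252712-53258510, in the anchors chr18:53243113-53262532. It spanned 157.8 to 182.1 kb. In 6 of its 13 anchor pairs the internal anchor, within chr18:53075669-53085412, had no TCF4 start within 3 kb. These included the strongest pair of H4 88-1. None of the loop's 13 anchor pairs was in the H4 list, while all 13 were listed in H4 88-1, 11 in 42MGBA and 11 in 42MGBA 53-1. The strongest reached 7.32 in H4 88-1, 5.88 in 42MGBA and 5.37 in 42MGBA 53-1. H4 88-1 was thus at least 0.82 higher than H4 on the log2 scale at its strongest pair, and the median lower bound over the 13 was 0.45. In 42MGBA the ratio had a median of -0.12, with the largest increase 1.03-fold, from 4.57 to 4.69. The parental lines differed here as well, since the H4 list lacked a loop that the 42MGBA list held.

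The third set was the longest, 1150.1 to 1353 kb, and ended at chr18:54235536-54249522, which overlaps the long non-coding RNA gene ENSG00000289876. Its 19 anchor pairs came from 4 regions of TCF4 starts. In both systems they were listed mostly in the STAG2-mutant line, with 14 in H4 against 2 in H4 88-1, and 12 in 42MGBA against 1 in 42MGBA 53-1. The strongest pair of H4 had 6.20 there, was absent from the H4 88-1 list, and had 5.97 in 42MGBA and 4.62 in 42MGBA 53-1, the largest decrease at TCF4 among pairs listed in both 42MGBA lines (0.774 of the parental strength). Of the 15 pairs compared in H4, 7 were unreadable because their H4 strength was under the lowest of the H4 88-1 list. Of the other 8, 7 were lower in H4 88-1. Only 1 of these 8 was listed in both H4 lines, with 4.75 in H4 and 4.51 in H4 88-1, so the direction of the others follows from their listing. The median log2 ratio was 0.01 over the 15 pairs and -0.13 over the 8. All 12 pairs compared in 42MGBA were lower in 42MGBA 53-1, with a median log2 ratio of -0.23. Only 1 of these 12 was listed in both lines, so the direction of the others follows from their listing. Anchor pairs over 1000 kb apart were lower in the STAG2-corrected line over the whole lists too, with medians of -0.06 in H4 and -0.18 in 42MGBA. They were also fewer there, with 14964 listed in H4 against 8249 in H4 88-1. The 42MGBA list held 10170 of them, against 6268 in 42MGBA 53-1.

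Further places were listed almost only in 42MGBA, chr18:53521720-53531100 with 4 pairs up to 5.06 and chr18:53589366-53594327 with 1 pair at 4.50. The 5′ end of the gene record, at 53332018, and the starts at 53298593 to 53303258 had no listed anchor, so all TCF4 values come from starts inside the gene.

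**Figure D3:**
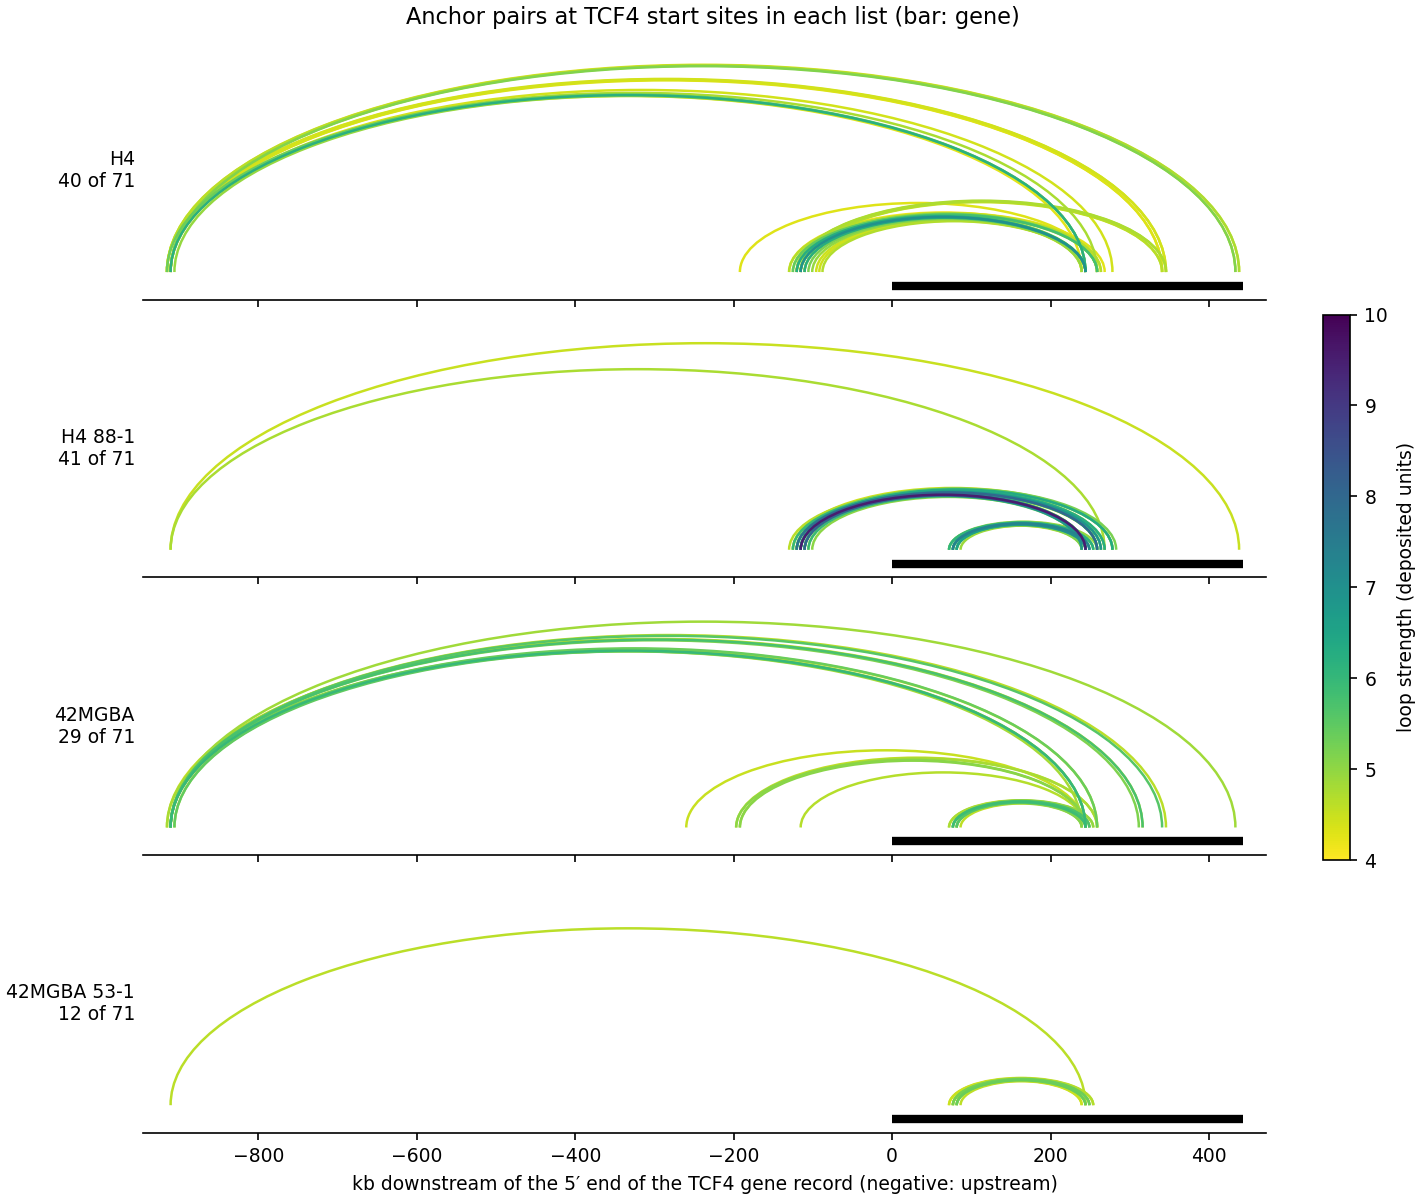
Anchor pairs at TCF4 start sites as arcs between anchor midpoints in each of the 4 lists, with distance downstream of the 5′ end of the gene record in kb on the horizontal axis, arc height in proportion to anchor distance, loop strength as colour and the gene as a black bar. The short loop within the gene is absent in H4 only, and the loop to the region upstream of the gene reaches 9.52 in H4 88-1. The long arcs thin out from 14 to 2 and from 12 to 1 in the STAG2-corrected lines. Pairs over 1000 kb apart were also fewer in the STAG2-corrected lists as a whole.

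TCF12 lies at chr15:57210821-57591479 on the plus strand (ENSG00000140262.18_9) and encodes the E-protein HEB. Its loops were lower in the STAG2-corrected line of both systems, by medians of -0.08 over 40 pairs in H4 and -0.14 over 71 pairs in 42MGBA, while chromosome 15 had 0.12 and -0.0040. Of the pairs with a readable direction, 28 of 34 were lower in H4 88-1 and 47 of 63 were lower in 42MGBA 53-1. Of the 77 pairs, 37 were listed in H4 and 18 in H4 88-1, with the strongest at 8.45 and 7.88. In 42MGBA 51 were listed and in 42MGBA 53-1 57, with the strongest at 8.96 and 8.05. With 1 start per gene TCF12 had 0 pairs in both H4 lines, 7 in 42MGBA and 13 in 42MGBA 53-1, so every TCF12 value in H4 came from starts inside the gene. With starts of protein_coding transcripts only, the counts were 18 and 7 in the H4 pair and 27 and 29 in the 42MGBA pair. More TCF12 pairs were listed in 42MGBA 53-1 than in its parent, although the 37 listed in both had a median log2 ratio of -0.16. Of the pairs listed in 42MGBA 53-1 alone, 8 lay under the lowest strength of the 42MGBA list and were unreadable.

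Most TCF12 loops, 62 of 77 pairs, shared 1 far region, chr15:56770729-56800503, upstream of the gene and with no annotated coding or long non-coding RNA gene. From there they reached 6 regions of TCF12 starts at 408.9 to 798.9 kb. The pair of highest strength led to the start at 57426514 and had 6.02 in H4 and 5.45 in H4 88-1, beside 8.96 in 42MGBA and 8.05 in 42MGBA 53-1, so both 42MGBA lines were above both H4 lines. The starts at 57506277 to 57511664 were the strongest end in H4 and H4 88-1, at 8.45 and 7.88. In 42MGBA the same end had 7.92, and in 42MGBA 53-1 it had 5.99. The largest decrease in 42MGBA among pairs listed in both lines was there, from 6.67 to 4.29, or 0.642 of the parental strength, beside 6.41 and 5.62 in H4 and H4 88-1.

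The most 3′ of these loops, to the starts at 57573845 to 57574653, held the single pair called lost in H4. That pair joined chr15:56785579-56790542 with chr15:57574864-57579292 and had 7.58 in H4 and 4.58 in H4 88-1, beside 6.49 in 42MGBA and 4.93 in 42MGBA 53-1. The strength was 0.604 of the parental one in H4 and 0.759 in 42MGBA, and both STAG2-corrected values were under both STAG2-mutant values. All 8 pairs of this loop were listed in H4 and all 8 in 42MGBA, against 1 in H4 88-1 and 4 in 42MGBA 53-1. Their median log2 ratios were -0.42 and -0.30.

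At the 5′ end of TCF12 the order of the systems was different. The loop from the far region to the starts at 57210821 to 57211715, where the gene ENSG00000285253 also begins, was listed in neither H4 line and had 9 pairs in 42MGBA and 11 in 42MGBA 53-1, with the strongest at 6.11 and 5.93. The largest increase at TCF12 among pairs listed in both 42MGBA lines was found here, from 5.00 to 5.93, or 1.19-fold, in 42MGBA 53-1. Shorter loops within TCF12 were listed in 42MGBA 53-1 alone, with 9 pairs of 206.7 to 226.1 kb between the 5′ starts and chr15:57425645-57440274 up to 5.26, and 4 pairs of 58.3 to 72.6 kb up to 4.91. Another 2 pairs, up to 4.86, were listed in H4 88-1 alone and led to chr15:57108739-57118439. A single pair of 573.1 kb from the far region to chr15:57358719-57363629, at 4.37, was also listed in 42MGBA 53-1 alone. That pair and 3 of the 13 shorter ones lay under the lowest strength of the 42MGBA list, so their direction is unreadable. The lists as a whole differed in short pairs as well. Pairs under 200 kb made up 37% of the 42MGBA 53-1 list, against 28.4% in 42MGBA, 26.1% in H4 88-1 and 22% in H4. Those from 200 to 500 kb made up 46.4% in 42MGBA 53-1 and 48.5% in 42MGBA.

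**Figure D4:**
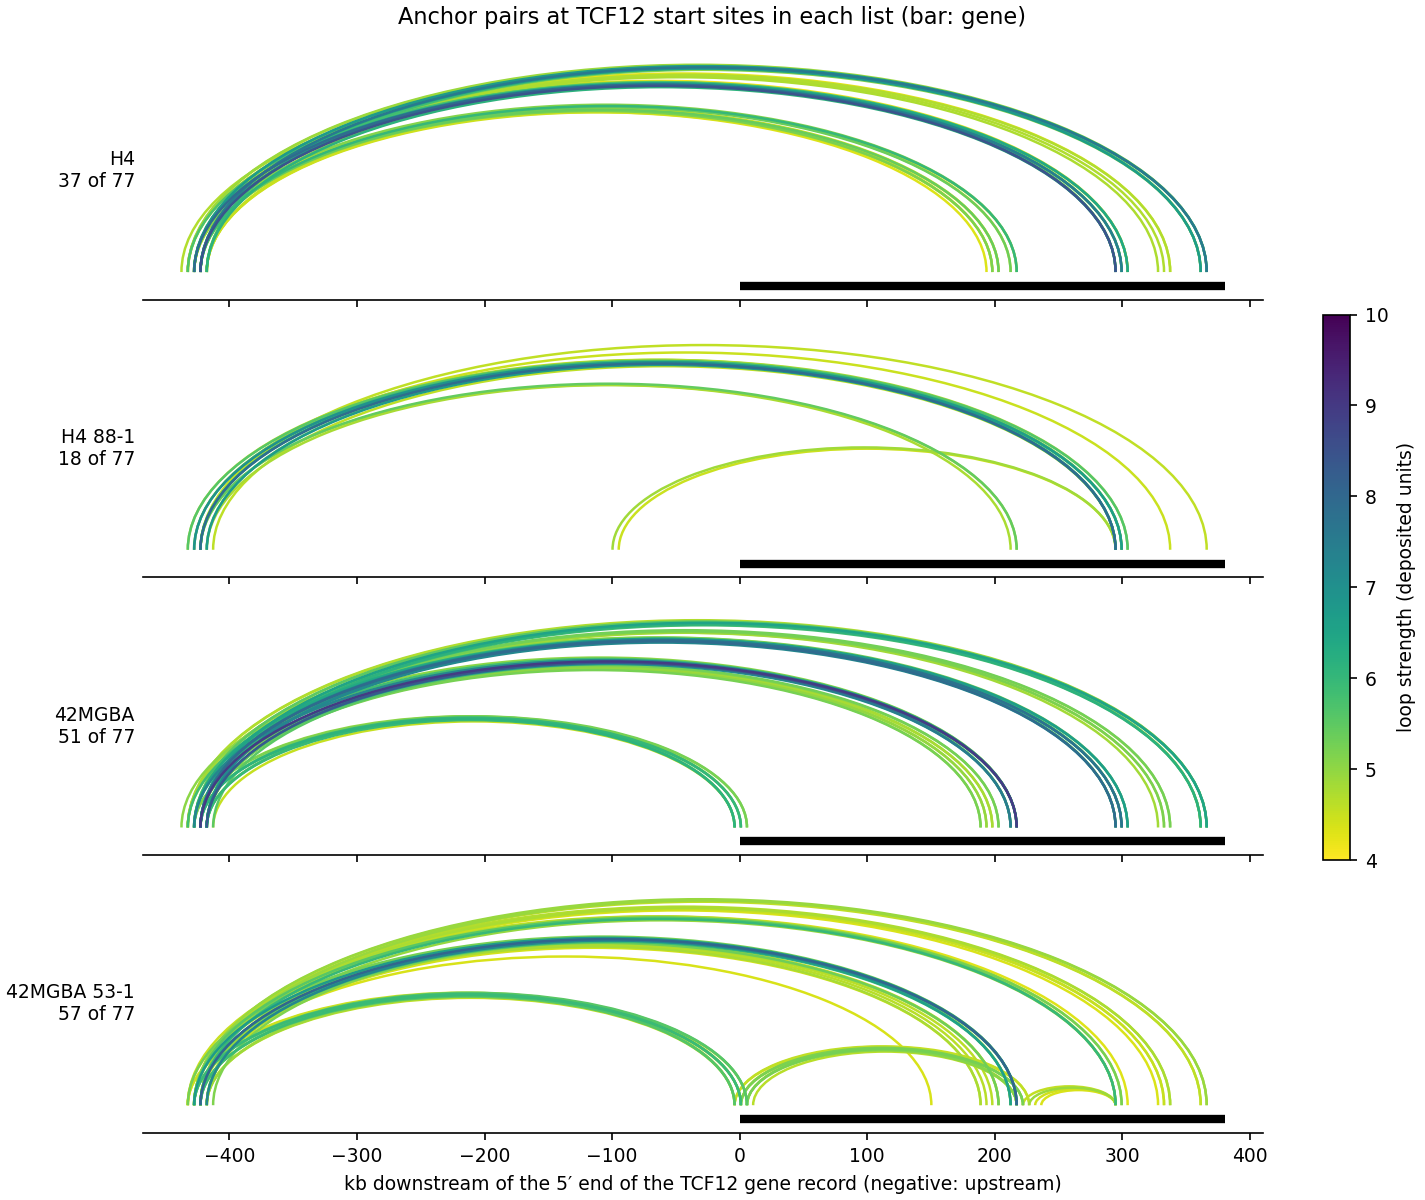
Anchor pairs at TCF12 start sites as arcs between anchor midpoints in each list, with distance downstream of the 5′ end of the gene record in kb on the horizontal axis, arc height in proportion to anchor distance, loop strength as colour and the gene as a black bar. The longest arcs, to the 3′ starts, number 8 in H4 and 1 in H4 88-1, and the short arcs inside the gene appear in 42MGBA 53-1.

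TCF3, at chr19:1609290-1652614 on the minus strand (ENSG00000071564.19_19), encodes the E-proteins E12 and E47. Its 2 anchor pairs were listed in H4 88-1 alone, near the lowest strength of that list. They joined the 5′ starts with an anchor within ONECUT3 at 111.6 kb (4.54) and with one at the start of ATP8B3 at 140.7 kb (4.61). Strengths this near to the lowest listed do not separate H4 88-1 from the 3 lines where the loops were not listed, whose values may lie just under their own lowest.

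ID3, at chr1:23884417-23885992 on the minus strand (ENSG00000117318.9_8), had the strongest loop among the ID genes, and it was present in all 4 lines. It was a single loop to chr1:23947648-23996232, over 63.5 to 111.8 kb, in a region overlapping the long non-coding RNA gene MDS2. The pair of highest strength had 10.0 in H4 and 9.61 in H4 88-1, beside 10.2 in 42MGBA and 8.99 in 42MGBA 53-1. The strengths of the corrected lines were 0.958 and 0.879 of their parents, and the 4 values lay closer together than those of the strongest pair of TCF4, TCF12 or ID2. Around this centre the most pairs were listed in H4, all 19, against 11 in H4 88-1 and 7 in each 42MGBA line. The H4 list reaches the lowest strength of the lists. Of the 19, 5 were unreadable against H4 88-1, and 5 against 42MGBA.

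The median log2 ratio of ID3 was -0.10 over 19 pairs in H4, against 0.09 over chromosome 1. All 14 pairs with a readable direction were lower in H4 88-1, the largest decrease among those listed in both being from 5.72 to 4.62, or 0.809 of the parental strength. In 42MGBA the median was -0.05 over 7 pairs, 2 of them higher and 5 lower in 42MGBA 53-1, against -0.07 over chromosome 1. Relative to the chromosome it was 0.01, relative to all anchor pairs 0.02, and with a window of 1 kb 0.07, so its direction turned with these choices. The extremes were an increase from 5.46 to 6.21 and a decrease from 6.30 to 5.42. None of the 13 z-scores of ID3, 8 in H4 and 5 in 42MGBA, passed the cutoff, and they ran from -0.94 to -0.26 and from -0.27 to 0.71.

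ID2, at chr2:8818975-8824591 on the plus strand (ENSG00000115738.10_7), was looped mainly in 42MGBA. Of its 14 pairs, 13 were listed in 42MGBA, against 1 in H4, 3 in H4 88-1 and 2 in 42MGBA 53-1. The main loop spanned 1246.8 to 1271 kb, from ID2 to chr2:7551153-7580621, which overlaps the long non-coding RNA gene ENSG00000229727. The pair of highest strength had 7.71 in 42MGBA and 4.46 in H4 88-1, and was not listed in H4 or in 42MGBA 53-1, where the strength was at most 0.555 of the parental one. The neighbouring pair was the only ID2 pair in all 4 lists, at 4.36 in H4 and 4.68 in H4 88-1, beside 7.62 in 42MGBA and 4.73 in 42MGBA 53-1. The value in 42MGBA stood apart from the other 3, which lay between 4.36 and 4.73. The anchor at this end of the loop holds the ID2-side CTCF core match printed above.

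A shorter ID2 loop of 588.8 to 598.7 kb, to chr2:8223833-8233771 within the long non-coding RNA genes LINC00298 and LINC00299, was listed in 42MGBA alone, with 4 pairs up to 5.47. Single pairs led to chr2:7255068-7260063 (4.55, 42MGBA alone) and to chr2:8679878-8684722 (4.53, H4 88-1 alone). Over all 13 pairs the median log2 ratio of 42MGBA 53-1 to 42MGBA was -0.34, against -0.06 over chromosome 2, and all 13 were lower. Only 2 of the 13 were listed in both lines, with a median of -0.64. The others were listed in 42MGBA alone, so their direction follows from their listing. The 4 z-scored pairs had -1.78 to -1.02 and did not pass the cutoff. In the H4 pair the 3 listed pairs were all higher in H4 88-1, by a median of 0.10, close to the 0.12 over chromosome 2. Only 1 of these 3 was listed in both H4 lines.

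ID1, at chr20:30193086-30194318 on the plus strand (ENSG00000125968.9_10), had 2 anchor pairs, both in 42MGBA 53-1 alone. They led to HM13, the gene of a signal peptide peptidase, over 43.7 and 48.4 kb, with strengths of 4.30 and 4.69. The weaker value is under the lowest strength of the 42MGBA list, and the stronger exceeds it by 0.06 on the log2 scale, so no difference between these lines can be read. ID4, at chr6:19837601-19842428 on the plus strand (ENSG00000172201.12_7), had no listed anchor within 3 kb. The nearest in H4 lay 7.83 kb from its start with 3 pairs up to 4.36, and in the other 3 lines the nearest lay 441.1 to 446.1 kb away. Loops weaker than the lists' lowest strength were not detectable for either gene.

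The ratios followed anchor distance over the whole lists, so each member is best read beside pairs of like distance (classes chosen after the values were seen). In H4 the median log2 ratio of all anchor pairs was 0.15 under 200 kb, 0.10 from 200 to 500 kb, 0.04 from 500 to 1000 kb and -0.06 above. In 42MGBA it was -0.02, -0.09, -0.16 and -0.18. TCF4 lay above its class in H4 under 200 kb (0.45, 13 pairs) and from 200 to 500 kb (0.25, 35 pairs). In 42MGBA TCF4 lay below its class under 200 kb (-0.12, 11 pairs) and from 200 to 500 kb (-0.16, 5 pairs). It also lay below above 1000 kb there (-0.23, 12 pairs), while the 1 TCF4 pair from 500 to 1000 kb lay above its class (-0.07). ID3 lay below its class in H4 (-0.10, 19 pairs). TCF12 lay below its class in H4 from 500 to 1000 kb (-0.09, 38 pairs) and near it in 42MGBA (-0.18, 46 pairs), but above its class in 42MGBA from 200 to 500 kb (0.03, 21 pairs). ID2 lay below its class in 42MGBA above 1000 kb (-0.34, 9 pairs) and from 500 to 1000 kb (-0.33, 4 pairs). All 13 of the TCF4 pairs under 200 kb were missing from the H4 list, so their ratios are lower bounds. In 42MGBA other values rest on listing too. Only 2 of the ID2 pairs, and 1 of the 12 TCF4 pairs above 1000 kb, were listed in both 42MGBA lines. None of the 5 TCF4 pairs from 200 to 500 kb was in the 42MGBA 53-1 list. The 21 TCF12 pairs include 9 of a loop listed in 42MGBA 53-1 alone.

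**Figure D5:**
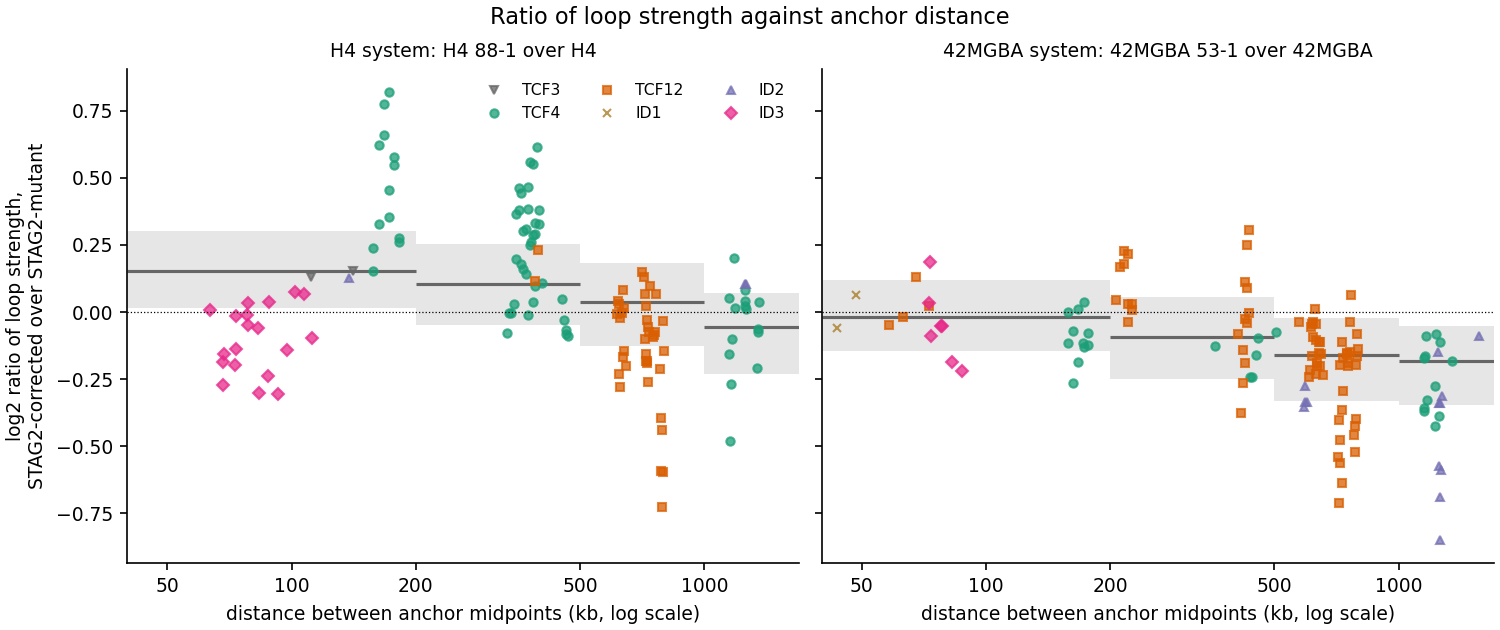
Log2 ratio of loop strength, STAG2-corrected over STAG2-mutant (vertical axis), against the distance between anchor midpoints in kb (log scale, from 40 kb) for each member anchor pair in the H4 system (left) and the 42MGBA system (right). Grey lines and bands are the median and quartiles of all anchor pairs in 4 distance classes, which step down from 0.15 to -0.06 on the left and from -0.02 to -0.18 on the right.

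Between the systems, the 2 parental lines were compared first. Of 147 member pairs, 6 (4.08%) were more than 1.5-fold higher in 42MGBA than in H4, against 8.86% of all anchor pairs, and none was 1.5-fold lower, against 3.8%. ID2 accounted for 4 of the 6 and TCF12 for 2. Between the STAG2-corrected lines, 2 of 124 pairs (1.61%), both at TCF12, were 1.5-fold higher in 42MGBA 53-1 than in H4 88-1, against 3.5%. Another 6 pairs (4.84%), all at TCF4, were 1.5-fold lower, against 8.22%. By member, the medians of the 2 between-system comparisons were 0.07 and -0.31 for TCF4, 0.18 and 0.05 for TCF12, 0.38 and -0.04 for ID2, and -0.13 and -0.13 for ID3. Some of these directions depended on the pairs or the scale used. Over the 12 TCF12 pairs listed in both STAG2-corrected lines the median was -0.30 in place of 0.05. Relative to all anchor pairs, TCF4 had -0.04 in the parental comparison and ID2 had 0.02 in the corrected one. Chromosome 15 as a whole had 0.21 and 0.07, and TCF12 lay at -0.03 relative to it in both.

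In the genes of the pathway, the list of bHLH partners and neighbours (43 genes, 19 with a listed pair) had 13 of 165 scored pairs gained and none lost in H4, and none of 154 gained and 1 lost in 42MGBA. The shares over all scored pairs were 1.94% gained and 2.17% lost in H4, and 1.61% gained and 2.45% lost in 42MGBA. The gained pairs belonged to 3 genes, HES1 (9 pairs), the Notch-driven repressor, and the clock-linked repressors BHLHE40 (2) and BHLHE41 (2), and the lost one to BHLHE41. Their median log2 ratios in H4 were 0.38 over 52 pairs for HES1, 0.58 over 25 for BHLHE40 and 0.09 over 48 for BHLHE41. The list's median was 0.15 in H4 and -0.16 in 42MGBA, beside 0.09 and -0.08 over all anchor pairs.

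The list of BMP and SMAD inputs to ID genes (19 genes, 15 with a listed pair) had 1 of 187 scored pairs gained and 9 lost in H4, and 3 of 109 gained and none lost in 42MGBA, beside the same background of 1.94% and 2.17% in H4 and of 1.61% and 2.45% in 42MGBA. BMPR1B, a type I BMP receptor, held all 9 lost pairs, with a median log2 ratio of -0.17 over 118 pairs and a most extreme z-score of -3.55. The gained pair in H4 was at ACVR1, another type I receptor (z-score 2.01), and the 3 in 42MGBA were at BAMBI, a decoy receptor (z-score up to 2.75). The list's median was 0.05 in H4 and -0.08 in 42MGBA. No other gene of either list held a called pair.

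The genes whose summed strength over the 4 lists was most like that of a member, by Euclidean distance of centred log2 sums among 7956 genes with at least 5 pairs, were MAP3K14 and SIT1 for TCF4 (distances 0.018 and 0.020). For TCF12 they were SH3BP5 (0.018) and IQCH (0.021), for ID2 CHIC2 (0.0050) and PISD (0.0064), and for ID3 ZNF580 (0.0057) and HLA-DOB (0.0068). With 4 values a gene, such distances are a description of the lists and many genes have small ones.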

How the data were processed

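Hi-C libraries (Arima Hi-C+ kit) came from 8 samples, 2 replicates of each of 4 lines. By the study's methods the authors shortened reads, aligned them to hg19 with Bowtie (version not given in the sources used here), kept uniquely mapped pairs, removed duplicates and assigned the rest to 5 kb anchors. HiCorr served for bias correction and LoopEnhance from the DeepLoop package for enhancement. What the authors deposited is the resulting signal (loop strength), cut to the top 300000 anchor pairs a line, in 1 list that the labels give for both replicates. They carry no counts, so depth and counting error behind each value are unknown. The 12 RNA-seq samples were not analysed here.

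Start sites of all transcripts of protein-coding genes were taken from GENCODE release 44 on GRCh37, and an anchor within 3 kb was assigned. Log2 ratios used the union of 2 lists with absent pairs at the list's lowest strength. For z-scores the 100000 strongest pairs of both lines were merged and the corrected strength regressed on the mutant one through the origin (the form of the regression in the study is not given in the sources used here), with a two-sided cutoff of 0.05. Groups joined pairs whose anchors both lay within 10 kb. Strongest pairs, largest increases and decreases among pairs listed in both lines, called pairs and the 2 most alike genes with at least 5 pairs were named by rule. HES1, BHLHE40, BHLHE41, BMPR1B, ACVR1 and BAMBI were named because they held called pairs. The members and gene lists were chosen with earlier results of these data known. Alternatives changed the window, the starts, the scaling and the z-score. Code was tested on simulated data. The tools were Python 3.11.15, pandas 2.3.3, numpy 2.4.6, matplotlib 3.10.9 for figures and scipy 1.17.1.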

Additional observations from a re-analysis of the deposited data

Results flagged for a closer look

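Loop strength of the STAG2-corrected over the STAG2-mutant line, as a median log2 ratio, had opposite signs in the H4 and 42MGBA systems for 2 genes. At TCF4 it was 0.20 in H4 and -0.13 in 42MGBA, a difference of 0.33. At ID2 it was 0.10 over 3 pairs in H4 and -0.34 over 13 pairs in 42MGBA, a difference of 0.44. Of these ID2 pairs, 1 in H4 and 2 in 42MGBA were listed in both lines of the system. The TCF4 medians rest largely on different pairs, 63 in H4 and 29 in 42MGBA. Of these, 34 in H4 but 1 in 42MGBA led to chr18:53417404-53464378, and 15 and 12 led to chr18:54235536-54249522. Each value comes from 1 list per line, and neither difference was tested. After subtraction of the median of all anchor pairs of each comparison, TCF4 had 0.10 and -0.05 and ID2 had 0.01 and -0.26, and after subtraction of the chromosome's median ID2 had -0.02 and -0.27.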

How the results depend on the processing

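No paired analysis was possible because 1 list stands for the 2 replicates of each line, and no replicate could be left out. The 4 medians over all members moved by less than the spread of their pairs under every alternative run, although in H4 the value of 0.03 changed sign with 1 start per gene (-0.06), with pairs listed in both lines only (-0.01) and after subtraction of the median of all pairs (-0.06) or of the chromosome (-0.08), and without pairs of unreadable direction (-0.01). In 42MGBA against H4 the value of 0.09 became -0.02 and -0.04 under these subtractions.

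Counts past 1.5-fold, higher and lower, were as follows where they moved by more than 1.5 times. For H4 88-1 against H4 (5 and 3), 10 kb gave 8 lower, 1 start per gene gave 0 and 0, pairs in both lists gave 0 and 1, and either subtraction gave 2 higher. For 42MGBA 53-1 against 42MGBA (0 and 5), 10 kb gave 10 lower, 1 start gave 0, pairs in both lists gave 3 and subtraction of the overall median gave 3. For 42MGBA against H4 (6 and 0), 10 kb gave 11 higher, 1 start gave 0, pairs in both lists gave 2, the overall median gave 2 lower, and the chromosome median gave 3 higher and 1 lower. For 42MGBA 53-1 against H4 88-1 (2 and 6), 10 kb gave 15 lower, 1 start gave 0 and 0, pairs in both lists gave 1 and 0, and the chromosome median and starts of protein_coding transcripts only, an alternative added after seeing the data, each gave 0 higher.

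The z-score calls in H4 (0 gained, 1 lost) became 2 gained with log2 ratios, and 2 gained and 3 lost with 200000 or all 300000 pairs merged. The lost call was absent within distance bins (0) and with 1 start per gene (0), and 10 kb gave 2 lost. In 42MGBA (0 and 0), 1 pair was lost with log2 ratios, 1 with 200000 merged and 3 with all merged. The gained pairs were at TCF4, and the lost ones at TCF12 in H4 and at ID2 or TCF12 in 42MGBA. With 1 start per gene TCF4 had no listed pair in any line. Leaving out pairs of unreadable direction, also added later, changed the sign of 1 of 24 medians. The cause of these shifts was not tested.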
